A study of Mus musculus with 16 samples.

Results

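The genes described here are 4 enzymes of glutathione and sulfur handling, Gclc, Gstm1, Gsta2 and Tst, among 6191 genes that could be tested on the arrays. Kidney RNA of 4 male Pept2-/- mice was compared on spotted cDNA arrays with 1 pool of RNA from 5 wild-type (Pept2+/+) kidneys. Pept2 is the older name of Slc15a2, which encodes the peptide transporter of the tubule cell's apical membrane. Both genotypes had a mixed C57BL/6 and 129Sv genetic background, were 88 (±2) days old when killed by cervical dislocation in the morning, and gave their right kidneys. Each knockout animal was hybridised on 4 arrays, on 2 of them with its RNA in channel 1 and on 2 in channel 2, so 16 arrays stand for 4 animals. The pool was never split by animal, so no value below includes how wild-type kidneys vary, and any deviation of the pooled RNA enters the ratios of all 4 mice alike.

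The members were picked by name from the knockout to wild-type ratios of all 16 arrays, as enzymes that make, use or lie next to glutathione. Those ratios are therefore a description. The fit over all genes covers the members too, and where its call or p against the pool is printed for a member, it describes that fit and is no independent test. Every probe that named 1 of these genes alone was taken, which gave 5 probes. Of these, 1 probe each of Gclc, Gstm1, Gsta2 and Tst had a value in each channel orientation of each mouse, and the second probe of Gclc, with values on 6 of 16 arrays, did not.

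Glutathione is the tripeptide of glutamate, cysteine and glycine that cells use to reduce peroxides and to conjugate foreign and oxidised compounds. Glutamate-cysteine ligase, with Gclc as its catalytic subunit, makes the dipeptide precursor and sets the pace of synthesis, and the transferases, among them Gstm1 of the mu class and Gsta2 of the alpha class, attach glutathione to their substrates. In the kidney, glutathione that reaches the tubule lumen is broken down by brush border enzymes to cysteinylglycine and free amino acids, and Slc15a2 is one of the routes by which such dipeptides return to the cell. Tst, also called rhodanese, is a mitochondrial enzyme that moves sulfur from thiosulfate to acceptors such as cyanide.

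The table of RefSeq promoters (GRCm38.p6) held both transferases. The 250 bases before the annotated start are shown because these 2 members of one enzyme family had unlike values across the 4 mice, described further on. CpG dinucleotides are in capitals, and both lines read 5′ to 3′ on the minus strand, chr9:78347146-78347395 for Gsta2 and chr3:108017974-108018223 for the outer of 2 annotated starts of Gstm1.
Gsta2: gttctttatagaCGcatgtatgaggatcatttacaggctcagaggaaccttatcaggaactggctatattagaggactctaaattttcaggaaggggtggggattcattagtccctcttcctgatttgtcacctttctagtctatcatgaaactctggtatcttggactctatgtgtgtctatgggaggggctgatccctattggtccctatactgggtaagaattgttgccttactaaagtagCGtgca
Gstm1: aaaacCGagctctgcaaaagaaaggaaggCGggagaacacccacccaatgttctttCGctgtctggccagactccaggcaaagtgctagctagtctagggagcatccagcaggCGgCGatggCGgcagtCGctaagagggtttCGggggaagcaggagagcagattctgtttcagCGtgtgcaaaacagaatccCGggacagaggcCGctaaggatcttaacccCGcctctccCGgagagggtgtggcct
The Gsta2 stretch holds 2 CpG dinucleotides and 43.2% G or C, and the Gstm1 stretch holds 13 and 57.6%. The stretch before the inner Gstm1 start, not printed, lies between them with 8 CpG dinucleotides and 54.8% G or C. The 300-base windows that hold these stretches have 2 for Gsta2, 14 for the outer and 8 for the inner Gstm1 start. The median over all windows is 7, and 23.3%, 65.4% and 54.2% of windows have as few or fewer. A link of these counts to the values was not tested. The letters TATAAA, searched on both strands, are in the window of Gsta2 and in that of the inner Gstm1 start, and not in that of the outer one. In Gsta2 the match is on the opposite strand, as tttata near the 5′ end of the printed line, far from the start. At the inner Gstm1 start it reads forward and lies close to that start. These letters are in 13.6% of all windows. The core of the antioxidant response element, the letters TGACNNNGC searched on both strands, to which the stress regulator NRF2 binds, is in neither 300-base window of Gstm1 nor in that of Gsta2. It is in 12.4% of all 32851 windows of that length. No match says only that these letters are not in these windows.

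Direction and quality of the ratios rest on the targeted gene. Slc15a2 stood below the pool on all 16 arrays with the values read as channel 1 over channel 2, with a mean log2 ratio of -2.51 ± 0.31 (SD, n = 4 mice). Before signing, its deposited value was above 0 on all 8 arrays that had the knockout sample in channel 2, and below 0 on all 8 that had it in channel 1. The labels do not say which channel is the numerator. The reading used is the likely one because the deleted gene is then the lower one in knockout kidney. Under the opposite reading every "above" and "below" here would be exchanged. Between 10134 and 18400 of 20205 probes carried a value on an array, and the number of arrays and mice limits the precision. Over all 6191 genes the median log2 ratio was -0.004, 48.2% of genes lay above 0, and the median SD between mice was 0.10. In whole kidney, fewer cells of a type and less RNA per cell cannot be told apart.

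Tst, the sulfurtransferase, stood above the pool on all 15 arrays that gave it a value. In mouse 1 the log2 ratios were 0.25 and 0.14 with knockout RNA in channel 2 and 0.50 and 0.61 in channel 1. In mouse 2 they were 0.39 in channel 2, where the other array was blank, and 0.25 and 0.33 in channel 1. Mouse 3 gave 0.62 and 0.50 in channel 2 and 0.57 and 0.30 in channel 1. Mouse 4 gave 0.58 and 0.32 in channel 2 and 0.76 and 0.63 in channel 1, and it had the highest single value. Averaged by animal, Tst stood at 0.37, 0.34, 0.50 and 0.57, a mean of 0.45 ± 0.11 (SD, n = 4 mice), which is 1.36 times the pool, and only 7 of the 6191 tested genes had a higher mean. The highest animal exceeded the lowest by 0.23 on the log2 scale.

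Gclc, the ligase subunit, lay below the pool in all 4 mice. With knockout RNA in channel 2, the arrays read -0.49 and -0.51 in mouse 1, -0.47 and -0.45 in mouse 2, -0.49 and -0.68 in mouse 3, and -0.23 and -0.42 in mouse 4. With knockout RNA in channel 1 they read -0.18 and -0.29, -0.22 and -0.15, -0.03 and -0.30, and 0.04 and 0.05 in mice 1 to 4. So 14 of 16 arrays were below 0, and the 2 above it were the channel 1 arrays of mouse 4. The mouse values were -0.37, -0.32, -0.37 and -0.14, with a mean of -0.30 ± 0.11 (SD, n = 4 mice), 1.23-fold below the pool. Mouse 4 lay nearest to the pool. The second Gclc probe had values in 3 mice: -0.29 and -0.21 in mouse 2, -1.03, -0.63 and -0.59 in mouse 4, and 0.13 on the 1 array of mouse 1. It was below the pool on 5 of its 6 arrays, but it put mouse 4 farthest from the pool, where the other probe put it nearest.

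Gstm1, the mu class transferase, was above the pool in all 4 mice, mostly by small amounts. With knockout RNA in channel 2 its 7 values ran from -0.12 to 0.34 with a median of 0.06, and with knockout RNA in channel 1 its 8 values ran from 0.11 to 1.08 with a median of 0.36. The mouse values were 0.16, 0.14, 0.18 and 0.46, a mean of 0.24 ± 0.15 (SD, n = 4 mice), 1.18 times the pool. Mice 1 to 3 were nearly level and mouse 4 was above them. A channel 1 array at 1.08 widened that gap, while the other arrays of mouse 4 read 0.34, 0.06 and 0.35. On channel 2 arrays alone mouse 4 was also the highest, at 0.20 against -0.03, 0.01 and 0.08. On arrays 3 and 4 alone the mice stood at 0.10, 0.19, 0.10 and 0.20, with mouse 4 level with mouse 2.

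Gsta2, the alpha class transferase, split the animals. In mouse 1 its arrays read 0.45 and 0.54 with knockout RNA in channel 2 and 0.12 and 0.82 in channel 1. In mouse 2 they read 0.46 and 0.67 in channel 2 and 0.86 and 0.73 in channel 1. In mouse 3 they read -0.14 and -0.40 in channel 2 and 0.03 and -0.14 in channel 1, and in mouse 4 they read -0.43 and -0.49 in channel 2 and -0.37 and -0.06 in channel 1. The lowest array of mice 1 and 2, at 0.12, was thus above the highest array of mice 3 and 4, at 0.03. The mouse values were 0.48, 0.68, -0.16 and -0.34, so the mean of 0.17 ± 0.49 (SD, n = 4 mice) describes none of the animals, and without mouse 2 it was -0.004. The highest and lowest mice were 2.02-fold apart.

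**Figure D1:**
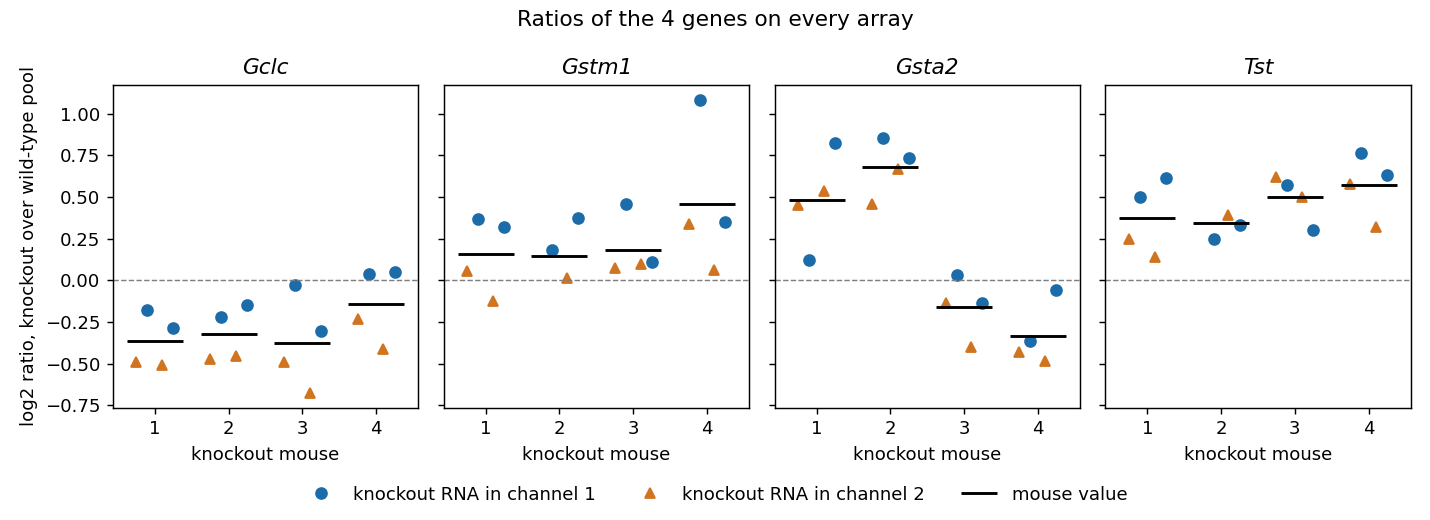
Log2 ratio of knockout over wild-type pool (vertical axis) on each array for Gclc, Gstm1, Gsta2 and Tst, by knockout mouse (horizontal axis); circles are arrays with knockout RNA in channel 1, triangles in channel 2, and the bar is the mouse value, the mean of both orientation means. Tst is above 0 on all 15 arrays, Gclc is below 0 on 14 of 16, and Gsta2 is above 0 in mice 1 and 2 and at or below about 0 in mice 3 and 4.

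In the fit of limma over all genes, 0.21% of the 6191 genes differed from the pool at an adjusted p under 0.05, 13 in number, and 1 of the 4 members, Tst, was among them. By direction, 0.0646% of genes were called higher, Tst among them, and 0.145% lower. Since that comparison chose the members, nothing is read from this count. Among all tested genes Gclc was the 47th from the lowest mean ratio, Gstm1 the 71st from the highest and Gsta2 the 232nd from the highest. The spread of Gsta2 between mice was the 38th widest, while Gclc and Tst, with an SD of 0.11 each, were near the median of all genes, 0.10. The count of 13 fell to between 3 and 10 without any 1 mouse, and the call on Tst was lost without mouse 1, 2 or 4 (limma adjusted p = 0.0578, 0.0524 and 0.151) and kept without mouse 3 (0.0409). It was also lost with no filter on blank values (0.073), on channel 1 arrays alone (0.119) and on channel 2 arrays alone (0.166). Gclc, not called here (limma adjusted p = 0.102), was called on probes with a value on all arrays (0.0392).

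**Figure D2:**
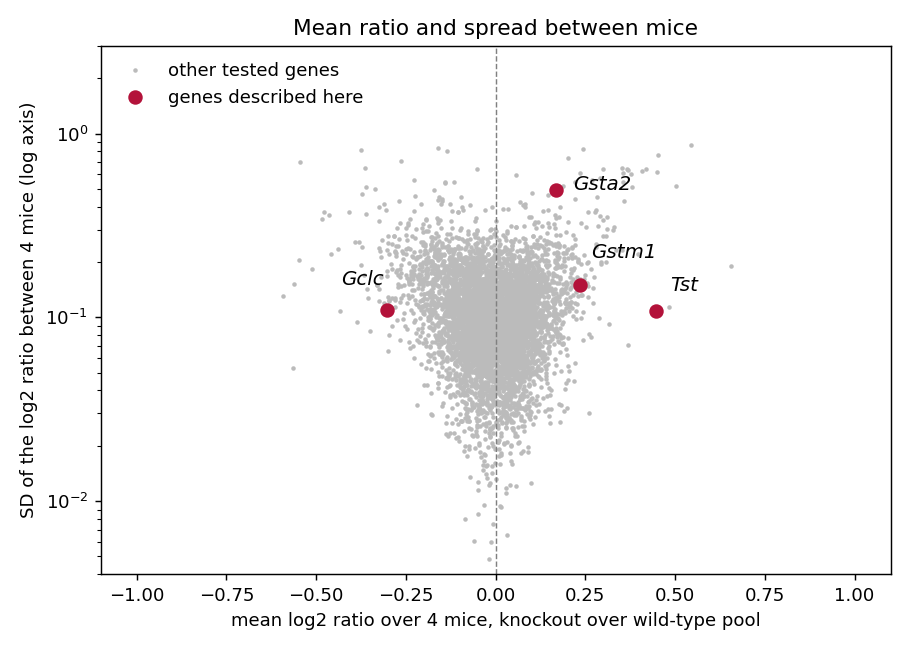
Each point is a tested gene, with the mean log2 ratio over 4 mice on the horizontal axis and the SD between mice on a log vertical axis; 1 gene lies outside the axes and Slc15a2 is left out. Tst, at 0.45, and Gclc, at -0.30, are near the edges of the cloud with an SD of 0.11 each, and Gsta2 lies high in it with an SD of 0.49.

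The next comparison was between the 4 knockout animals, in which the shared pool cancels. It was made by limma's moderated F test on single arrays with an orientation term, and it compares these animals only, since arrays are technical replicates. It called 2.54% of the 6191 genes (157; 45, 75 and 58 without mouse 1, 2 or 3), and 1 of the 4 members, Gsta2, at an adjusted p of 0.000238. The adjusted p was 0.38 for Gclc, 0.506 for Gstm1 and 0.558 for Tst, which does not show that those animals are alike. Differences between mice made up 84.4% of the sum of squares of Gsta2 over its arrays. The share was 33.8% for Tst, 23.35% for Gstm1 and 21.3% for Gclc, for which orientation took 64.6%. Gsta2 passed without any 1 mouse too, with adjusted p from 0.000106 to 0.0131. The members were chosen from the same arrays, so its spread may have been in view when it was chosen.

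Other genes shared the split of Gsta2. Of 2826 genes with a value on every array, 38 (1.34%) had all arrays of mice 1 and 2 above all arrays of mice 3 and 4, and 6 (0.212%) had them all below. This split was looked for after the values of Gsta2 were seen. By Pearson r over the arrays, with each gene centred within orientation, the genes most like Gsta2 were Vdac2, a channel of the mitochondrial outer membrane, at 0.93 over 16 arrays, Ssb, an RNA-binding protein, at 0.93 over 15, and Psmb1, a proteasome subunit, at 0.93 over 16. The arrays come from 4 mice and share the pool, and the 99th percentile of r over 4655 genes was 0.84. Vdac2 stood at 0.05, 0.08, -0.18 and -0.30 in mice 1 to 4, a narrower range than that of Gsta2.

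For Gclc the nearest genes were Slc6a9 (r = 0.81 over 14 arrays), Brd1 (0.79 over 15) and Rp9 (0.78 over 15). For Gstm1 they were Eps8l2 (0.95 over 15), Abra (0.94 over 15) and Dvl2 (0.91 over 14), and for Tst Slc22a18 (0.87), Rnasek (0.85) and Lman2 (0.85), each over 15 arrays. The 99th percentile of r over the compared genes was 0.62 for Gclc, 0.81 for Gstm1 and 0.76 for Tst. Eps8l2, Abra and Dvl2 were all highest in mouse 4, as Gstm1 was. They were picked by their r to Gstm1 over these same arrays, so nothing is read from this. Between members, r was 0.70 for Gstm1 and Tst, 0.63 for Gclc and Gstm1, and 0.45 for Gclc and Tst. With Gsta2 it was -0.55 for Tst, -0.50 for Gstm1 and -0.37 for Gclc.

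Of 42 tested markers of kidney and other cell types, 4 differed between mice, against 2.54% of all 6191 genes. Of these 4, 2 split the animals as Gsta2 did, with the sign turned. Among the 157 genes called between mice, 39 had mice 1 and 2 below mice 3 and 4, and 89 had them above. Of all tested genes, 24.8% had them below and 27.6% had them above, so either order is common. Umod, which encodes uromodulin of the thick ascending limb, stood at -0.14, -0.33, 0.19 and 0.27 in mice 1 to 4, low where Gsta2 was high, and was the only 1 of 7 loop and distal tubule markers that could be tested. The medians of 7 tested proximal tubule markers were 0.06, -0.03, 0.07 and -0.02 in mice 1 to 4, and those of 5 proximal straight tubule markers were 0.00, -0.14, 0.08 and -0.10. Of that last list, the aminoacylase Acy3 also differed between mice, at -0.12, -0.39, 0.18 and 0.27. The call on Umod (limma adjusted p = 0.0125) was lost without mouse 2 or mouse 3 (0.22 and 0.0513), and that on Acy3 (0.0414) without any 1 mouse (0.0605 to 0.461). The other 2 did not follow that split: Fabp4 of fat cells stood at -0.11, 0.34, 0.02 and -0.47 (adjusted p = 0.0108, limma's moderated F test), and the collagen gene Col1a1 at -0.17, 0.21, -0.23 and 0.04 (0.042). None of the markers, on 11 lists, passed against the pool. All 4 tested endothelial markers (median -0.12) and 7 of 8 smooth muscle and fibroblast markers (median -0.09) lay below it. Of all tested genes, 51.8% lay below it. Of the other lists with at least 5 tested markers, 5 of 7 leukocyte and 3 of 5 collecting duct markers lay above it. So did 4 of 7 proximal tubule and 2 of 5 proximal straight tubule markers. The part of cell composition in the values of Gsta2 was not tested.

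The channel that carried the knockout RNA mattered for the size of 2 members. The Gclc ratio was higher with knockout RNA in channel 1 than in channel 2 in every mouse, by 0.27, 0.28, 0.42 and 0.37, a mean difference of 0.33 ± 0.04 (SE, n = 4 mice). Gstm1 had the same sign of difference in every mouse, by 0.38, 0.27, 0.20 and 0.52, a mean of 0.34 ± 0.07 (SE, n = 4 mice). Taken from channel 1 arrays alone, Gclc stood at -0.14 and Gstm1 at 0.41, and from channel 2 arrays alone at -0.47 and 0.07. Tst stood at 0.50 and 0.40, and Gsta2 at 0.25 and 0.08. In limma no gene passed for this difference (0 of 6191, 0%, with 1208 genes at an unadjusted p under 0.05). The adjusted p was 0.159 for Gclc and for Gstm1, 0.294 for Gsta2 and 0.617 for Tst. Because each mouse was measured in both orientations, a constant bias of this kind cancels in the mouse values.

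**Figure D3:**
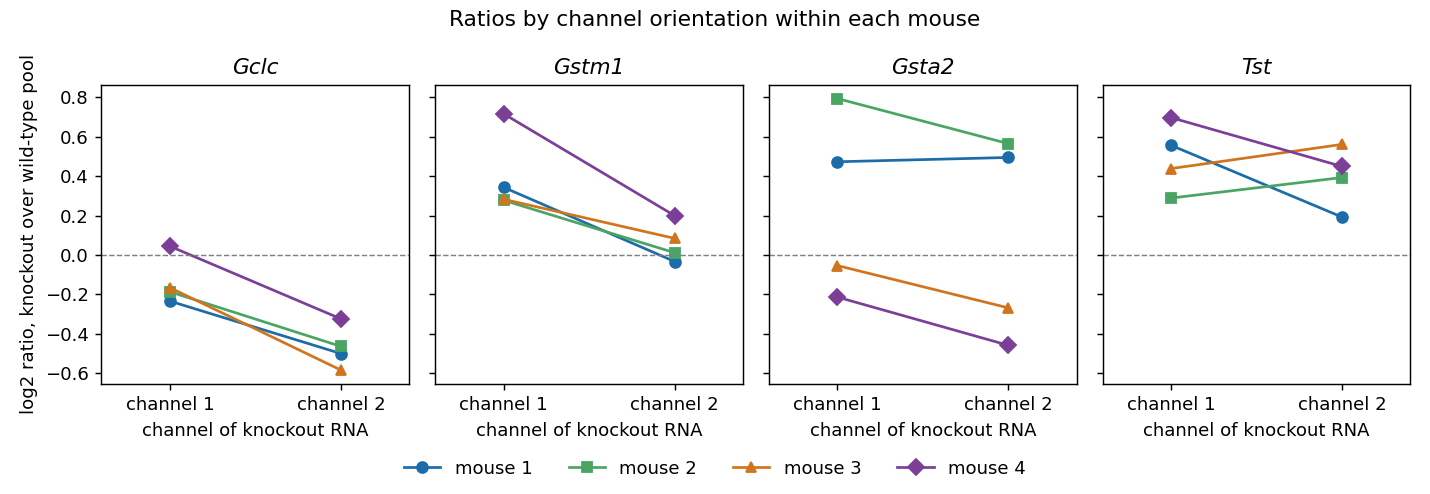
Mean log2 ratio of knockout over pool (vertical axis) by the channel that held the knockout sample (horizontal axis), with a line for each mouse. For Gclc and Gstm1 all 4 lines fall from channel 1 to channel 2, by 0.33 and 0.34 on average, and for Gsta2 the 2 upper and 2 lower mice stay apart in both.

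Arrays 1 and 2 of each mouse held both orientations, as did arrays 3 and 4, which allowed a check within animals. Gclc stood at -0.33, -0.35, -0.26 and -0.10 on arrays 1 and 2 of mice 1 to 4 and at -0.40, -0.30, -0.49 and -0.18 on arrays 3 and 4. Gsta2 stood at 0.29, 0.66, -0.05 and -0.40 on arrays 1 and 2 and at 0.68, 0.70, -0.27 and -0.27 on arrays 3 and 4, so the same 2 animals were high on both pairs of arrays. Limma called none of 2681 genes between the pairs (0%, with 103 at an unadjusted p under 0.05). Gstm1 and Tst were not tested there, since an array of mouse 2 was blank for both.

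Of 16 listed genes of glutathione synthesis and breakdown 7 were tested, none passed, 5 had a ratio below 0 and the median log2 ratio was -0.09, against -0.004 over all genes. Without Gclc, which was chosen from these ratios, 4 of 6 were below 0, against 51.8% of all genes, with a median of -0.08. Gclm, the regulatory partner of Gclc in the same ligase, stood at 0.03 ± 0.03 (SE, n = 4 mice), with -0.01, -0.02, 0.06 and 0.10 in mice 1 to 4, so the 2 subunits did not share a value. Gss, the synthetase of the second step, stood at -0.08 ± 0.01. Cndp2, a cytosolic dipeptidase able to cleave cysteinylglycine, was at -0.27 ± 0.04 with all 4 mice below 0, and Lap3, a leucine aminopeptidase, was at -0.14 ± 0.05. Dpep1, the brush border dipeptidase, was at -0.09 ± 0.08. Ggt6, of the gamma-glutamyltransferase family, had the highest mean at 0.35 ± 0.27, which rested on mouse 3 at 1.15.

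Of 25 listed transferases 12 were tested, none passed against the pool, and 10 had a ratio above 0, with a median of 0.09. These counts hold Gstm1 and Gsta2, which were chosen from the same ratios. Without them 8 of 10 were above 0, against 48.2% of all genes, with a median of 0.07. Gstp1, the pi class enzyme, stood at 0.18 ± 0.05 (SE, n = 4 mice) with 0.13, 0.10, 0.32 and 0.16 in mice 1 to 4. The theta class members Gstt3, Gstt1 and Gstt2 stood at 0.11 ± 0.04, 0.09 ± 0.03 and 0.09 ± 0.07. Of the mu class beside Gstm1, Gstm3 was at 0.09 ± 0.07 and highest in mouse 4 (0.29), as Gstm1 was, while Gstm2 was at 0.00 ± 0.04. On channel 2 arrays alone the median of the list was -0.03, so its sign depends on the orientation used. Mgst3, a microsomal transferase, was at 0.14, 0.22, 0.07 and -0.24 in mice 1 to 4. Gsta2 was the only 1 of the 12 called between mice. Its alpha class relative Gsta4 was measured by 2 probes that did not pass the filter, at 0.05 and 0.02 in mouse 1, -0.01 and 0.03 in mouse 2, and -0.29 and -0.0039 in mouse 4. Members of one class can share sequence, and a spotted cDNA need not tell them apart.

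In the list of sulfur amino acid and sulfide metabolism, 1 of 10 tested genes passed, Tst itself, which was chosen from these same ratios. The other 9 did not pass, and 6 of 10 had a ratio above 0 with a median of 0.03. Without Tst it was 5 of 9, with a median of 0.01. Of 3 other mitochondrial enzymes of sulfide breakdown none passed. Ethe1, the persulfide dioxygenase, stood at 0.20 ± 0.11 (SE, n = 4 mice), with -0.01, 0.05, 0.40 and 0.37 in mice 1 to 4, and Suox, the sulfite oxidase, at 0.16 ± 0.06. Sqor, the quinone oxidoreductase of the first step, was at -0.02 ± 0.03. Mpst, the cytosolic and mitochondrial relative of Tst, had values in 2 mice, 0.20 in mouse 2 and 0.19 in mouse 4. Cth, which releases cysteine from cystathionine, was at -0.18 ± 0.08 and Mat2b, a subunit of methionine adenosyltransferase, at -0.10 ± 0.07.

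**Figure D4:**
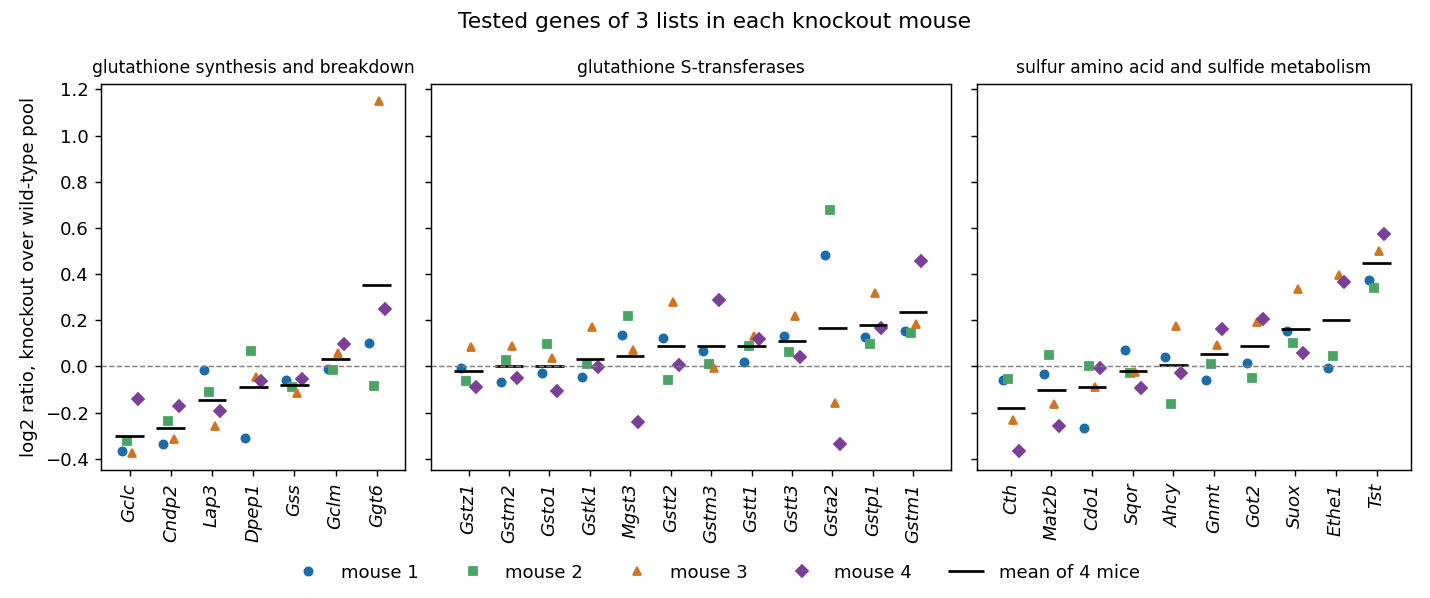
Log2 ratio of knockout over pool (vertical axis) of the tested genes of the glutathione synthesis and breakdown, glutathione S-transferase, and sulfur lists, ordered by mean within each; symbols are the 4 mice and bars their mean. Tst is the highest of the sulfur genes at 0.45, Gclc the lowest of the synthesis genes at -0.30, and Gsta2 the transferase with the widest spread between mice.

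Other genes that act on peroxides, thiols or the supply of reducing power followed in these lists. Of 29 listed peroxide and thiol enzymes 21 were tested, none passed and 7 had a ratio above 0 (median -0.03). Txnrd3, a thioredoxin reductase, stood at 0.19 ± 0.04 (SE, n = 4 mice), Cat, the catalase, at 0.17 ± 0.06 and Txn1, the thioredoxin, at -0.17 ± 0.07. Gpx6, of the glutathione peroxidase family, was called between mice (adjusted p = 0.00392, limma's moderated F test). It stood at 0.03, 0.02, -0.69 and -0.58 in mice 1 to 4, so it was low in the animals in which Gsta2 was low, and the call was lost without mouse 2 (adjusted p = 0.0526, limma). Gpx8 stood at -0.18 ± 0.10. NRF2 drives the transcription of Gclc and other antioxidant genes. Of 23 genes linked to NRF2 that are not on the lists above, 9 were tested and none passed (median -0.03). Pgd and Tkt, of the pentose phosphate pathway, stood at 0.15 ± 0.02 and 0.13 ± 0.03, Me1 at 0.08 ± 0.04, Keap1, the repressor of NRF2, at -0.05 ± 0.03, and Ugdh at -0.17 ± 0.12. Nfe2l2, the gene of NRF2, had no value on any array, and Hmox1 had a value on 2.

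A promoter window was listed for 57 of the 66 tested genes of these lists, and 8 of them held the antioxidant core, the same share, to 3 digits, as among all genes with a window. The 8 were Gclm, Prdx1, Txnrd1, Sod1, Me1, Pgd, Ugdh and Slc13a3. Their median log2 ratio was 0.03 with 5 of 8 above 0, against 0.01 for the 49 without it.

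Of 14 carriers of peptides, amino acids, dicarboxylates and organic anions 7 were tested. Against the pool 1 was called higher and 1 lower, beside 0.0646% and 0.145% of all 6191 genes. The gene called lower was Slc15a2 itself, the deleted gene. Slc22a8, an organic anion transporter, rose to 0.48 ± 0.06 (SE, n = 4 mice; limma adjusted p = 0.0149), at 0.43, 0.34, 0.57 and 0.59 in mice 1 to 4. The call was lost without mouse 1 or mouse 4 (limma adjusted p = 0.0578 and 0.132). Slc25a10, the mitochondrial dicarboxylate carrier, stood at 0.27 ± 0.06, Slc13a3, the basolateral dicarboxylate transporter, at 0.21 ± 0.06 and Slc1a4, a neutral amino acid transporter, at 0.09 ± 0.03, with no adjusted p under the threshold.

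Gclc and Gsta2 lie on the same chromosome, 11 protein-coding genes apart in RefSeq order. Of the genes between them 2 were tested. The elongase Elovl5 stood at -0.01, 0.12, -0.09 and -0.33 in mice 1 to 4, and Fbxo9, of the ubiquitin ligases, at -0.06, -0.09, -0.07 and -0.10. On the far side of Gsta2, the next gene Dppa5a stood at -0.15, -0.22, -0.17 and 0.26. None of these 3 passed the test between mice (adjusted p = 0.164, 0.968 and 0.833, limma's moderated F test).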

How the data were processed

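The value table holds log2 ratios of 1 channel over the other per spot, deposited by the authors; the log base is inferred, since 46.5% of 720 distances between low values matched base 2 and none matched base e or 10. Per the labels' protocols, RNA was labelled indirectly with Cy3 and Cy5, spots were quantified in GenePix Pro 3.0 as background-subtracted mean intensities, and each array's median ratio was scaled to 1. Which dye marked which channel is not stated there. Here each array was signed to knockout over wild type and centred on its median (deposited medians -0.093 to 0.008). Probes naming 1 gene (11723 of 20205; 806 named several and 7676 none) with a value in each orientation of each mouse were kept, and probes of a gene averaged. A mouse value averages both orientations, each first averaged over its arrays, so n is 4 mice. Tests used limma 3.58.1 in R 4.3.3 over 6191 genes with Benjamini-Hochberg adjustment at 0.05. The test against the pool leaves out the spread of the wild-type mice. In data simulated for that comparison, 100 of 100 genes changed by 0.5 were called and 0 of 5791 unchanged genes. The simulated noise was alike for all of these genes, and no error of the pool was simulated. No change as small as those of the members was planted, so the recovery does not cover changes of their size. Named were the members, the called genes and up to 5 genes of smallest p in each of 6 pathway lists, transferase and rhodanese relatives, and the 3 genes most like each member by r; Dpep1, Sqor, Umod, Acy3 and the chromosomal neighbours were chosen after their values were seen. The members and lists were chosen with earlier results of these data known. Promoter sequences are from RefSeq. Alternatives covered the filter, centring, scaling, orientation, array pairs, a random block and each left-out mouse.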

Additional observations from a re-analysis of the deposited data

Results flagged for a closer look

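In 2 of 66 genes of the pathway lists 1 mouse stood far from the other 3 by Dixon's criterion, a share of 3.03%, and chance alone flags about 1 in 20 groups. Gstm1 stood at a log2 ratio of 0.46 in mouse 4, against 0.14 to 0.18 in the others, with 1 of its arrays at 1.08; on arrays 3 and 4 alone it stood at 0.20, against 0.10 to 0.19. Txnrd2, a mitochondrial thioredoxin reductase, stood at -0.057 in mouse 2, against 0.08 to 0.09.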

How the results depend on the processing

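The signs of Gclc (-0.47 to -0.14), Gstm1 (0.07 to 0.41) and Tst (0.40 to 0.50) held under every alternative that gave them a value; Gsta2 ran from -0.004 to 0.33. The 13 genes called against the pool became 40 on probes with a value on all arrays, 3 with no filter, 1 on channel 2 arrays only, 4 on arrays 1 and 2, 8 on arrays 3 and 4, and 467 with arrays as units and the mouse as a random block, and 3 to 10 without any 1 mouse. The 157 called between mice became 45 to 135 without any 1 mouse. On channel 1 arrays Gclc was -0.14 and Gstm1 0.41, and on channel 2 arrays -0.47 and 0.066. The median of glutathione synthesis and breakdown was -0.14 on probes with values on all arrays, -0.12 on channel 1 arrays, -0.15 on channel 2 arrays, -0.13 on arrays 3 and 4, and -0.14 to -0.086 without any 1 mouse. The median of the transferases was -0.030 on channel 2 arrays, and that of the sulfur list 0.11 on channel 1 arrays and -0.064 on arrays 1 and 2. The median of the NRF2-linked genes not on other lists was 0.015 with no filter, 0.033 on channel 1 arrays, 0.042 on arrays 1 and 2, and -0.027 to 0.033 without any 1 mouse. The causes were not tested. Alternatives for the list medians, and those for Slc15a2 other than leaving out a mouse, were chosen after seeing the data. No paired analysis was possible because the mice were compared with 1 pool and no groups share replicate numbers. The number of mice and arrays limits all values.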
